A study of Mus musculus with 4 samples.

Results

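A set of 10 genes that mark the mesothelium, *Wt1*, *Upk3b*, *Upk1b*, *Msln*, *Lrrn4*, *Muc16*, *Podxl*, *Nkain4*, *Gpm6a* and *Bnc1*, were followed through single stromal cells of the embryonic mouse intestine. They are 10 of the 28692 genes listed in the count matrices and were chosen by name, as genes in use as mesothelial markers. For each gene the level, the share of cells with at least 1 unique molecular identifier (UMI, 1 counted transcript) and the co-detection with the other genes were taken in every library, and the cells without *Upk3b* were examined for the genes that reach into them, *Wt1* above all.

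The mesothelium is the single sheet of flat, epithelial cells that covers the gut and lines the body cavity. It arises from the coelomic epithelium, carries keratins on its inside and a coat of mucins and other glycoproteins on its free side, and can release cells into the tissue below it as they lose their epithelial form. *Wt1* encodes a zinc finger transcription factor of the coelomic lining, the kidney and the gonad. *Upk3b* and *Upk1b* encode uroplakins, membrane proteins also known from the bladder lining, *Msln* encodes the surface protein mesothelin, and *Muc16* a large surface mucin that binds it. *Podxl* encodes podocalyxin, an anti-adhesive sialomucin, *Lrrn4* a membrane protein with leucine-rich repeats, *Gpm6a* a neuronal membrane glycoprotein, *Nkain4* a protein that interacts with the sodium pump, and *Bnc1* the zinc finger protein basonuclin 1.

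The libraries came from untreated E12.5 embryos of EYFP (C57BL/6) mice, 2 from the small intestine (SI, libraries SI1 and SI2) and 2 from the large intestine with the cecum (LI, libraries LI1 and LI2). Every group thus shares the stage, the absence of treatment and the YFP reporter. Cells had been sorted as live, Itgb1+ and YFP+ cells that lacked CD45, Ter119, CD31 and EpCAM, and each experiment pooled several embryos, so that a library is a pool and not an animal. The titles give the stage and the region, whereas other labels of the same samples name adult tissue or the colon, and which library was made with the 3′ and which with the 5′ kit is not stated.

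After filtering and removal of likely doublets, 22094 cells were kept, 10709 of LI and 11385 of SI. Kept cells of LI1 were shallower, at a median UMI count of 4220, than those of the other libraries, at 8384 to 8834. Shares of cells were therefore taken after each cell had been thinned at random to 3000 UMIs, which left 20718 cells and left out 1376 shallower cells, 982 of them in LI1. Pairs of libraries shared 8 to 15 cell barcodes, at most 0.221% of a library. Both replicates of a region differed by far more than sampling noise, with a chi-square of 60.6 per degree of freedom over genes for LI and 40.9 for SI.

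Promoter sequences are shown for *Upk3b*, for *Lrrn4* and *Muc16*, whose cells mostly held *Upk3b*, and for *Bnc1*, whose cells mostly did not. They are the 250 bases before and 50 bases after the start of the gene, 5′ to 3′ on the strand of the gene, from RefSeq on GRCm38.p6, whose table held a promoter for 5 of the 10 genes (*Wt1*, *Upk1b*, *Msln*, *Podxl* and *Nkain4* were not matched). Capitals mark the TEAD core GGAATG and the GC box GGGCGG, each searched on both strands, and these motifs do not overlap here.

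Upk3b: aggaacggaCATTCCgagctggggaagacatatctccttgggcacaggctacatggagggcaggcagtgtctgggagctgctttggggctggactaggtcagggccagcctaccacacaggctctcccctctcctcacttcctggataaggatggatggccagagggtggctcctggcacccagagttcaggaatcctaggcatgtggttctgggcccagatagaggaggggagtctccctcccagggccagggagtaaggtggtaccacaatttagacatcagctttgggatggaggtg
Lrrn4: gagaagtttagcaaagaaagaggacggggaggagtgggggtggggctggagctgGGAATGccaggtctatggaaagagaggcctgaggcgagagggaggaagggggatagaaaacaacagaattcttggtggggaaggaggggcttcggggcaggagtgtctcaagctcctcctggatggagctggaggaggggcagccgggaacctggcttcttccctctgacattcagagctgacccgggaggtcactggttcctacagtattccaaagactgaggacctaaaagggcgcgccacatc
Muc16: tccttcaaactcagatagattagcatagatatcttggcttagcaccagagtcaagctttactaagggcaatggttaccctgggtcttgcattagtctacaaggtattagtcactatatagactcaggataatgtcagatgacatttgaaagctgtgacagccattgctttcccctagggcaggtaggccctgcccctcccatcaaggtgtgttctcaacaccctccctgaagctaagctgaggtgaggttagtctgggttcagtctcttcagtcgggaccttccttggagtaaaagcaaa
Bnc1: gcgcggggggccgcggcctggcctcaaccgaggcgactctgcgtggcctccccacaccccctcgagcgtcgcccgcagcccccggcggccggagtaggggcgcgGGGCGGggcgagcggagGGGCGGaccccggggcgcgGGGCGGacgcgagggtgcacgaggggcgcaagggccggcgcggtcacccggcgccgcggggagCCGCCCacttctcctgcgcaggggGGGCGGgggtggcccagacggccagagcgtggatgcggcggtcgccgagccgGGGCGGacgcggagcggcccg

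The windows lie at chr5:136038246-136038545 on the plus strand for *Upk3b*, and on the minus strand at chr2:132880813-132881112 for *Lrrn4*, chr9:18674554-18674853 for *Muc16* and chr7:81992250-81992549 for *Bnc1*. *Upk3b* and *Lrrn4* each held 1 TEAD core, at positions -241 and -196 from the start, and *Muc16* held neither motif. *Gpm6a*, with 2 promoters in the table, held a TEAD core (-125) and a GC box (37) in 1 of them. *Bnc1* held 6 GC boxes in a window of 83.3% G and C, against 58.7% for *Upk3b*, 58.0% for *Lrrn4* and 46.7% for *Muc16*. Of 32851 promoters of this length, 14.7% held the TEAD core and 35.7% the GC box. The EGR/WT1 core GCGTGGG, present in 5.04% of all promoters, was in none of the promoters of *Upk3b*, *Lrrn4*, *Muc16*, *Bnc1* and *Gpm6a*. These are matches of letters in a short window and say nothing of binding. In the mm10 annotation (GENCODE) *Wt1* lies at chr2:105126529-105173616 on the plus strand, *Upk3b* at chr5:136038496-136046487 (+), *Bnc1* at chr7:81966672-81992292 (-), *Podxl* at chr6:31519488-31563981 (-) and *Upk1b* at chr16:38773184-38800328 (-). *Lrrn4* (chr2:132868305-132880891), *Muc16* (chr9:18495455-18674530), *Msln* (chr17:25748613-25754378) and *Nkain4* (chr2:180934772-180954699) lie on the minus strand and *Gpm6a* (chr8:54954843-55060871) on the plus strand, and all 10 are protein-coding.

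*Wt1*, *Upk3b* and *Podxl* were each detected in several percent of cells, and *Lrrn4*, *Muc16* and *Gpm6a* in at most 1.46%. *Wt1* was detected in 8.02% of thinned cells of LI1, 6.50% of LI2, 4.41% of SI1 and 3.70% of SI2. Both LI libraries lay above both SI libraries. *Upk3b* was detected in 8.78%, 4.45%, 4.78% and 2.48% of cells in the same order, so that its SI and LI values overlapped. *Podxl* was at 6.73% and 3.98% in LI and 2.99% and 2.04% in SI, and *Upk1b* at 4.0% and 2.95% against 2.55% and 1.66%. Neither set overlapped between regions. *Bnc1* ranged from 2.28% in SI2 to 3.98% in LI2, *Muc16* from 0.799% to 1.46%, *Lrrn4* from 0.636% to 1.01% and *Gpm6a* from 0.196% to 0.80%, each higher in both LI libraries than in both SI libraries. *Nkain4* ran the other way, with 1.29% and 3.50% in LI and 4.37% and 6.49% in SI. By the exact permutation test over libraries each of these separations had a 2-sided p of 0.3333, the smallest that 2 against 2 libraries allow. The share of all genes that separate in this way was not taken. Most of the members were found largely in the same cells, so that they do not count as independent.

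*Msln* was all but absent. Its 3 UMIs among all kept cells, 1 in SI1 and 2 in SI2, came from cells with *Upk3b*, and none was left after thinning. In the thinned mesothelial-like cells described below it was found in 0 of 1208 cells, which allows a share of cells with a UMI of up to 0.248%. Mesothelin could therefore not be followed further at this depth. Intervals and floors of this kind cover counting error only.

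**Figure D1:**
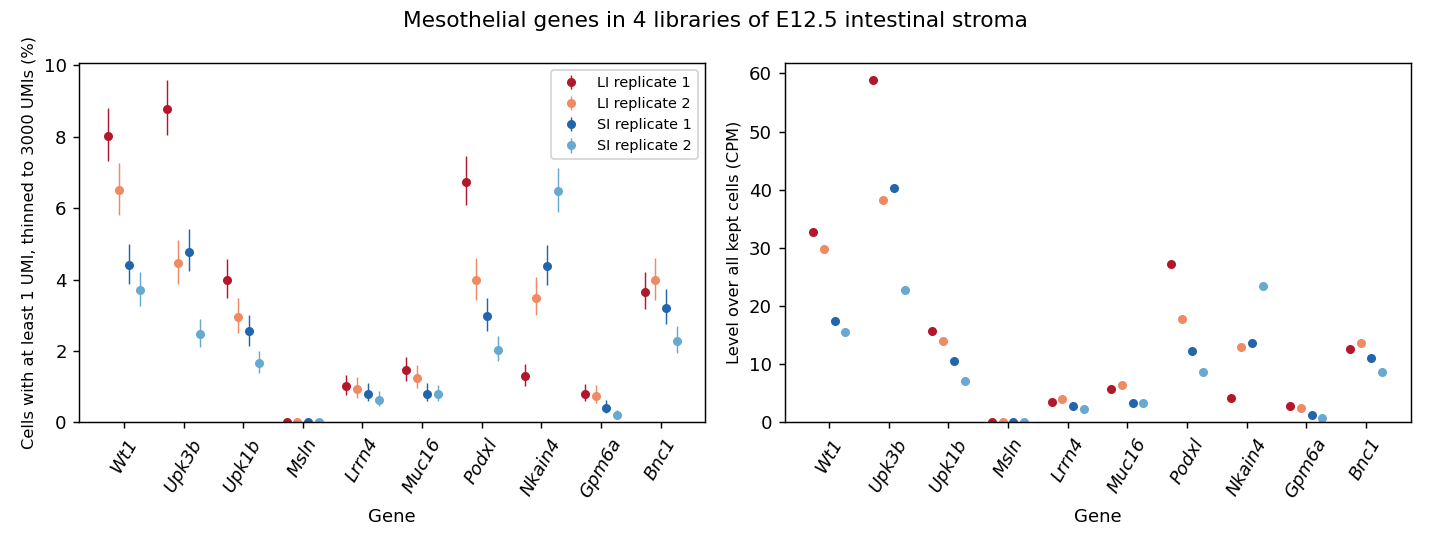
Share of cells with at least 1 UMI after thinning to 3000 UMIs (left, %, with 95% Wilson intervals) and level over all kept cells (right, CPM, UMIs scaled to the library total) of the 10 genes, 1 point per library. *Wt1* is higher in both LI libraries (8.02% and 6.50%) than in both SI libraries (4.41% and 3.70%), *Nkain4* is highest in SI2 (6.49%) and *Msln* lies at 0.

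Whether the levels differed between regions was asked first over all kept cells, with the counts summed per library, as cells are not replicates. In such sums, fewer cells with a gene and less of its RNA per cell cannot be told apart. *Wt1* stood at 32.7 CPM in LI1, 29.9 in LI2, 17.5 in SI1 and 15.6 in SI2, without overlap, a log2 fold change of SI over LI of -0.79 ± 0.18 (SE). By edgeR's quasi-likelihood test it did not pass at an adjusted p under 0.05 (adjusted p = 0.0912). *Podxl* stood at 27.3 and 17.8 CPM in LI and 12.4 and 8.66 CPM in SI (-0.97 ± 0.29, adjusted p = 0.194). Of the 9 members tested, 0 were called and 6 had an unadjusted p under 0.05, while 290 of 14920 genes (1.94%) were called and 14.6% had an unadjusted p under 0.05. Their median log2 fold change was -0.63, against 0.01 over all genes tested. The absence of calls depended on the fit: DESeq2 called *Wt1* and *Podxl*, where it called 622 of the 14920 genes. With a block for the replicate number edgeR called *Wt1* (-0.79, adjusted p = 0.0193), *Podxl* (-0.96), *Nkain4* (1.38) and *Gpm6a* (-1.23), and 972 genes in all. Without LI2 the log2 fold change of *Wt1* was -0.90 and that of *Podxl* -1.29, and without SI1 that of *Podxl* was -1.28. Each fit by region without a library leaves 1 library in an arm, which is assumed to vary like the other region, whose 2 libraries alone give the spread. Other cell types also shifted with region in these sums, as the summed smooth muscle cell (SMC) markers were at 734 and 1478 CPM in LI and 1661 and 3640 CPM in SI, and the part of such shifts in the member levels was not tested.

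The cells were then divided by clusters. The clustering used none of the 10 genes, no *Hox* gene and none of the partner lists, so that the members did not decide which cells fell together. Cluster 6, with 1308 cells, was called mesothelial-like, as *Krt19*, *Krt7*, *Dpp4* and *Ezr* were among its 10 leading genes. It also had the fibroblast (FB) marker *Dcn* among them. It made up 10.3% of kept cells in LI1, 5.15% in LI2, 5.22% in SI1 and 2.75% in SI2. The largest of the other clusters were cluster 0 (FB-like, 5913 cells), cluster 1 (SMC-like, 4937 cells) and cluster 2 (FB-like, led by histone genes, 2742 cells).

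Mesothelial-like cells were where most members were concentrated. *Upk3b* was found in 964 of 1208 thinned cells of cluster 6, 74.6% in LI1, 80.3% in LI2, 87.8% in SI1 and 84.0% in SI2. It was not used to give the label, but the markers that were had been chosen with earlier results of these data known. *Podxl* was in 52.3% ± 4.40 of them (SD, n = 4 libraries), *Wt1* in 50.1% ± 6.85, *Upk1b* in 49.4% ± 9.93, *Bnc1* in 24.6% ± 5.28, *Muc16* in 20.3% ± 7.02 and *Lrrn4* in 15.3% ± 5.49. *Gpm6a* and *Nkain4* were found in only 3.59% ± 0.823 and 3.34% ± 1.97 of these cells. Neural-like cells (clusters 7 and 9, median UMI counts of 13616 and 12146) served as cells that should lack most of the genes. Among 1212 of them *Upk3b*, *Upk1b*, *Muc16* and *Bnc1* were found in 0, which allows a share of up to 0.248%, *Wt1* in 2, *Lrrn4* in 1 and *Podxl* in 6.

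The genes known from neurons behaved differently there. *Nkain4* was found in 7.09% ± 2.41 of neural-like cells, more than in mesothelial-like cells in each of the 4 libraries, and *Gpm6a* in 1.20% ± 0.411. *Nkain4* was also spread over clusters 0, 1, 3 and 4 at means of 3.70% to 6.54%, and was at 1.94% and 1.89% in clusters 2 and 5. Its share in mesothelial-like cells lay within this range. An antisense gene, *Gm14341*, overlaps its exons, and the counting of strands is not stated.

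**Figure D2:**
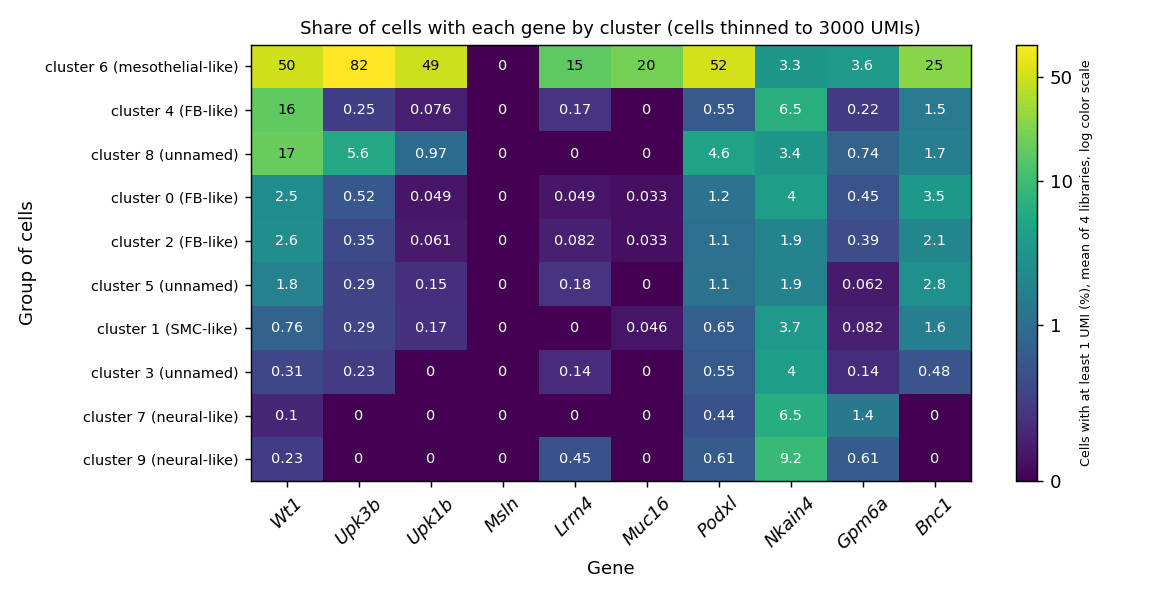
Share of thinned cells with each gene (columns) in each cluster (rows), mean of 4 libraries, with the percent printed and a log colour scale. Most members peak in cluster 6 (mesothelial-like), *Wt1* has its next highest shares in clusters 8 and 4, and *Nkain4* is highest in cluster 9 (neural-like).

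*Wt1* was also frequent in cells of another named cluster. In cluster 4, an FB-like cluster of 1784 cells led by *Anxa2*, *Tac2*, *Wnt4* and *Slit2*, it was found in 18.5% of cells in LI1, 21.4% in LI2, 10.4% in SI1 and 12.6% in SI2. In the same cells *Upk3b* was found in 5 of 1724, *Upk1b* in 2, *Lrrn4* in 3 and *Muc16* in 0. *Wt1* was far rarer in the larger FB-like cluster 0 (3.78%, 2.96%, 1.91% and 1.46%) and rarest outside neural-like cells in cluster 3 (0.314% ± 0.266), an unnamed cluster led by *Bmp3* and *Col14a1*. In both FB-like clusters the LI values lay above the SI values. Cluster 8, an unnamed cluster of 311 cells with *Pf4*, *Afp*, *Alb* and *Hbb-bt* among its leading genes, held *Wt1* in 9 of 103 cells of LI2, 13 of 34 of SI1 and 24 of 109 of SI2. It had 5 cells in LI1, and its uneven presence in the libraries moves with the results on *Wt1* given without it below.

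How far each gene reaches beyond *Upk3b* was measured on thinned cells with no *Upk3b* UMI. *Wt1* was found in 1147 thinned cells, of which 671 had no *Upk3b* UMI and 558 also lay outside the mesothelial-like cluster. By library, 55.2% of the *Wt1*+ cells lacked *Upk3b* in LI1, 61.2% in LI2, 50.7% in SI1 and 68.7% in SI2. *Bnc1* reached as far, with 442 of its 664 cells without *Upk3b* (59.9% to 75.0%) and 387 also outside the cluster. *Podxl* reached less far, with 289 of 796 cells without *Upk3b* (28.5% to 40.6%) and 164 outside. *Upk1b* (109 of 566 cells), *Lrrn4* (32 of 173) and *Muc16* (29 of 220) mostly went with *Upk3b*, and only 16, 14 and 4 of their cells were *Upk3b*- and outside the cluster. *Gpm6a* (69 of 107 cells) and *Nkain4* (811 of 839) were mostly found without *Upk3b*.

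A cell without a *Upk3b* UMI may still be mesothelial at this depth. *Upk3b*- cells inside the mesothelial-like cluster had *Wt1* in 51.3% ± 12.3 of cells, *Podxl* in 53.3% ± 4.37 and *Upk1b* in 43.6% ± 10.9, close to the 47.4% ± 6.63, 49.5% ± 4.05 and 47.3% ± 8.94 in *Upk3b*+ cells. *Muc16* was less frequent in them in each library, at 11.3% ± 4.54 against 20.6% ± 7.09, and *Lrrn4* in 3 of the 4, at 10.1% ± 8.13 against 15.3% ± 4.77. These cells numbered 141 in LI1, 45 in LI2, 31 in SI1 and 27 in SI2. They were therefore kept apart from the *Upk3b*- cells outside the cluster.

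Outside the cluster, *Wt1* was found in 3.77% of *Upk3b*- cells in LI1, 3.63% in LI2, 1.92% in SI1 and 2.42% in SI2. Both LI values lay above both SI values (3.70% ± 0.101 against 2.17% ± 0.350, SD, n = 2 each). The exact permutation test over libraries gave a 2-sided p of 0.3333, the smallest that 2 against 2 libraries allow. Without thinning the shares were 5.36%, 8.72%, 4.70% and 5.15%, again higher in LI. The share in neural-like cells was 0 in both LI libraries, 0.315% in SI1 and 0.235% in SI2, so that *Wt1* lay above this background in every library. *Wt1*+ cells held fewer copies there, with a mean of 1.14 ± 0.041 *Wt1* UMIs per positive cell against 1.5 ± 0.187 in *Upk3b*+ cells.

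The other genes divided by the same background. *Bnc1* was found in 1.61% to 2.60% of *Upk3b*- cells outside the cluster and in none of the neural-like cells. *Podxl* was at 1.35% and 1.13% in LI and 0.564% and 0.487% in SI, against 0.479%, 0.383%, 0 and 0.941% in the neural-like cells of LI1, LI2, SI1 and SI2, and so lay below this background in SI2. *Upk1b* (0.0627% to 0.110%) and *Muc16* (0 to 0.0441%) had shares under the 0.248% that 0 of 1212 neural-like cells allow, so that a level above background was not detectable for them at this depth. *Lrrn4* (0.0209% to 0.144%) was in 1 of these 1212 cells (0.0825%), too few to tell its share from background. *Gpm6a* (0.134% to 0.577%) and *Nkain4* (1.35% to 6.55%) lay below the neural-like share in every library.

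**Figure D3:**
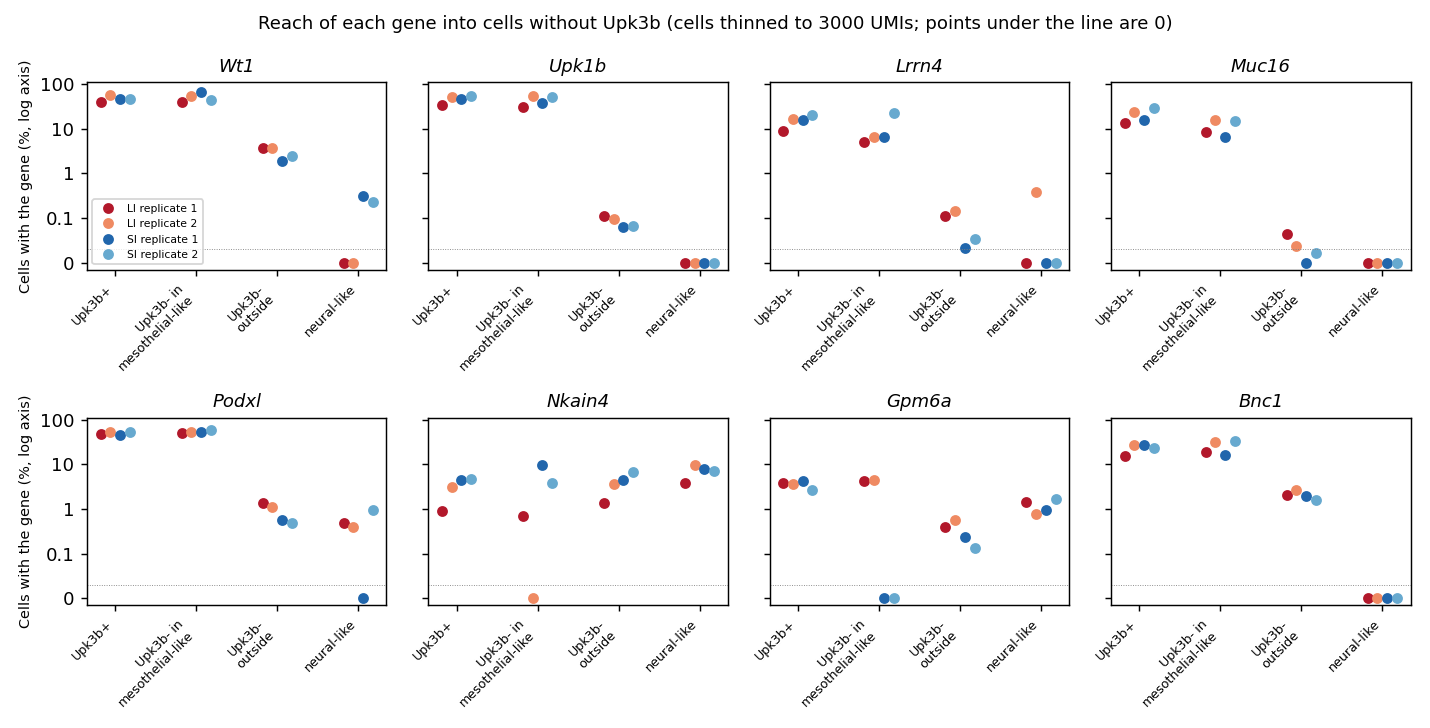
Share of thinned cells with each gene (%, log axis, 1 point per library, points under the dotted line are 0) among *Upk3b*+ cells, *Upk3b*- cells inside the mesothelial-like cluster, *Upk3b*- cells outside it and neural-like cells. *Wt1* and *Bnc1* stay at 1.61% to 3.77% outside the cluster, above the neural-like cells, whereas *Upk1b*, *Lrrn4* and *Muc16* fall to 0.144% or less.

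The *Wt1*+ *Upk3b*- cells outside the cluster were not spread evenly. Cluster 4 held 257 of the 558, a mean of 46.1% ± 7.87 over libraries against 8.66% ± 1.62 of all *Upk3b*- cells outside the mesothelial-like cluster. In each library the share was far above that of all such cells, from 39.8% against 8.18% in LI1 to 57.6% against 11% in SI2. Cluster 0 held 23.6% of them, near its 27.3% of all such cells, and the SMC-like cluster 1 held 5.09% against 23.7%. Cluster 8 held 8.10% ± 6.99 against 1.21% ± 1.02, from 0 of these cells in LI1 to 16.7% in SI2. *Bnc1*+ cells had another distribution, with 45.8% ± 16 in cluster 0.

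The order of the genes by level was much like that by share when *Upk3b*+ and *Upk3b*- cells were compared within each library by edgeR with library as a block. *Upk3b* chose the cells and was left out. In this comparison 25.1% of 12211 genes were called and 13.0% were called higher in *Upk3b*+ cells. *Wt1* stood at 18.3, 16, 9.41 and 10.3 CPM in *Upk3b*- cells of LI1, LI2, SI1 and SI2 and at 184, 311, 201 and 261 CPM in *Upk3b*+ cells (log2 fold change 4.13 ± 0.16, adjusted p = 2.87e-13). No *Upk3b*- value came near a *Upk3b*+ value. *Muc16* (7.13 ± 0.34), *Lrrn4* (6.52 ± 0.36), *Upk1b* (6.51 ± 0.23) and *Podxl* (5.36 ± 0.22) had larger fold changes than *Wt1*, and *Bnc1* (3.52 ± 0.19) and *Gpm6a* (3.3 ± 0.44) smaller ones. Each of these 7 passed the test. *Muc16* (2 to 16 UMIs) and *Lrrn4* (3 to 12 UMIs) had few UMIs in the *Upk3b*- sum of each library. *Nkain4* stood at 4.42 to 23.7 CPM in *Upk3b*- cells and 2.96 to 16.5 CPM in *Upk3b*+ cells, which overlapped (-0.29 ± 0.27, adjusted p = 0.486). The filter on low counts could let rare genes such as *Muc16*, *Lrrn4* and *Upk1b* through on their *Upk3b*+ sums alone. Their calls and the number of called members are therefore descriptions only.

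The genes known to go with mesothelium moved with *Upk3b* in the same comparison. Of 12 partner genes, chosen with earlier results of these data known, 10 were tested and 9 were higher, with a list median of 3.48 against -0.06 over all genes. Rare partners such as *Krt19* could pass the filter through their *Upk3b*+ sums, so that this count and median are descriptions only. *Krt19* rose from 0.892 to 6.56 CPM in *Upk3b*- cells to 248 to 320 CPM in *Upk3b*+ cells (6.76 ± 0.28), and *Krt7* (6.47), *Dpp4* (5.56), *Ezr* (3.77), which links membranes to actin, and the secreted Wnt agonist gene *Rspo1* (2.83) were also higher. Among the coelomic transcription factors *Gata6* (3.68 ± 0.22) and *Nr2f1* were higher, while *Foxf1*, *Nr2f2*, *Osr1* and *Tcf21*, factors of gut mesenchyme, were lower, out of 7 tested. Of the 9 genes of the epithelial-mesenchymal transition (EMT), 7 were lower, among them *Snai1* (-1.72 ± 0.21), *Snai2* and *Zeb2*, and *Twist1* was higher. Of 8 mesenchymal genes 6 collagen and matrix genes were higher in *Upk3b*+ cells, with *Col1a1* at 1.01 ± 0.09, whereas the receptor gene *Pdgfra* was lower, at 2.19 to 13.8 CPM against 67.5 to 110 CPM in *Upk3b*- cells. *Aldh1a2*, which makes retinoic acid, was higher (2.06 ± 0.28), and *Crabp1* (-2.68 ± 0.30) and *Crabp2*, which bind it in the cell, were lower, out of 7 retinoid genes. Of 7 genes of the hedgehog pathway, by which the gut epithelium signals to the mesenchyme, *Smo* was higher and *Gli3* and *Ptch1* (-0.45 ± 0.12) were lower. DESeq2 did not call *Col1a2*, *Lum*, *Postn*, *Foxf1* and *Twist1*, and after thinning to 2000 UMIs *Smo*, *Ptch1* and *Foxf1* did not pass. With library left out of the fit 1471 genes were called, against 3063 with it. The calls lost there were those of *Col1a1*, *Col1a2*, *Col3a1*, *Lum*, *Aldh1a2*, *Crabp2*, *Cdh2*, *Nr2f1*, *Nr2f2*, *Gli3*, *Smo*, *Foxf1*, *Ptch1*, *Twist1* and *Vim*. The calls of *Foxf1*, *Ptch1*, *Twist1*, *Vim* and *Postn* were each lost without at least 2 of the 4 libraries taken in turn, at -0.23, -0.33, 0.31, -0.20 and 1.06 without SI2.

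The members were then set against each other cell by cell. Pairs were described by the number of cells with both genes over the number expected if both were independent, within each library, which gives no test as cells of 1 library share its depth. Over the 28 pairs without *Msln* and *Nkain4* the median ratio was 9.59, and 26 pairs were above 1 in all 4 libraries. *Upk1b* with *Lrrn4* had the highest median ratio (20.02), followed by *Upk3b* with *Muc16* (19.5), *Lrrn4* (18.5) and *Upk1b* (18.05). *Upk3b* was present in 87.9% of *Muc16*+ cells, 81.8% of *Lrrn4*+ cells and 81.4% of *Upk1b*+ cells, means over libraries. The reverse did not hold, as 20.6% ± 7.09 of *Upk3b*+ cells had *Muc16*, 15.3% ± 4.77 *Lrrn4* and 47.3% ± 8.94 *Upk1b*. *Lrrn4* and *Muc16* were found together in 33 cells.

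*Wt1* was more loosely tied to *Upk3b* than these genes. It was found with *Upk3b* in 184, 111, 110 and 71 cells of LI1, LI2, SI1 and SI2, ratios of 5.10, 8.72, 10.3 and 12.6. Its ratio was lower with *Bnc1* (2.20 to 5.46, 147 cells) and *Gpm6a* (1.82 to 5.40, 17 cells), and lowest with *Nkain4* (0.70 to 1.22, 39 cells). Seen from *Wt1*, 41.0% of its cells had *Upk3b* on average, whereas 47.4% of *Upk3b*+ cells had *Wt1*. *Nkain4* had median ratios with the 8 other detected members between 0.198 and 1.08, and none was above 1 in all libraries. In single libraries these ratios ran from 0 to 1.89. Within the mesothelial-like cluster the median ratio of the 28 pairs was 1.02, with pair medians from 0 (*Lrrn4* with *Gpm6a*) to 1.59 (*Muc16* with *Gpm6a*). Outside it the median was 0, and *Upk3b* with *Upk1b* was highest at 24.5.

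**Figure D4:**
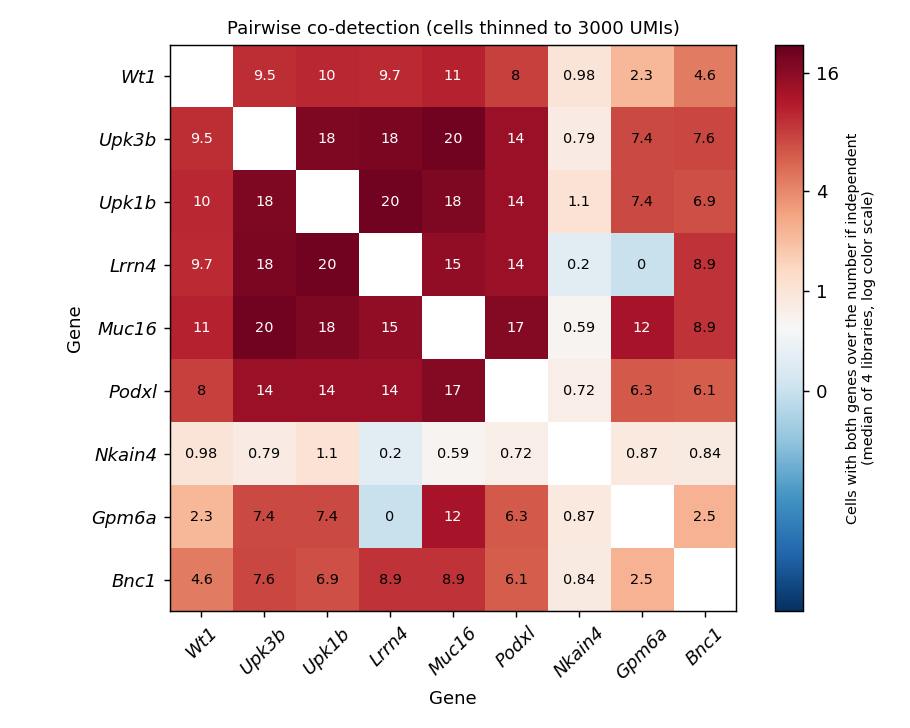
Cells with both genes over the number expected if independent, for each pair of 9 genes (median of 4 libraries, log colour scale, thinned cells). *Upk3b*, *Upk1b*, *Lrrn4*, *Muc16* and *Podxl* form a block of high ratios, *Wt1* and *Bnc1* lie lower (4.61 with each other) and *Nkain4* lies near or below 1.

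Many *Wt1*+ cells had no other member. Counting the 7 members other than *Msln*, *Nkain4* and *Wt1* itself, 42.6% of *Wt1*+ cells were alone in LI1, 49.3% in LI2, 41.3% in SI1 and 62.1% in SI2. For *Bnc1* the mean was 56.5% ± 7.20 and for *Gpm6a* 56.2% ± 13.3, but for *Podxl* it was 22.0% ± 3.20, for *Upk3b* 11.1% ± 2.17, for *Lrrn4* 7.22% ± 4.18, for *Upk1b* 4.55% ± 1.30 and for *Muc16* 2.91% ± 1.64. Among cells with none of these 7 other genes *Wt1* was found in 3.99%, 3.54%, 1.98% and 2.42% of LI1, LI2, SI1 and SI2. With 1 other gene the share was 8.43% to 23.5%, and with 2 it was 42.6% to 57.1%. From 2 to 4 or more genes the share did not rise in every library, as it reached 68.8% in LI2 but was 35.0% in LI1 and 43.5% in SI2.

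**Figure D5:**
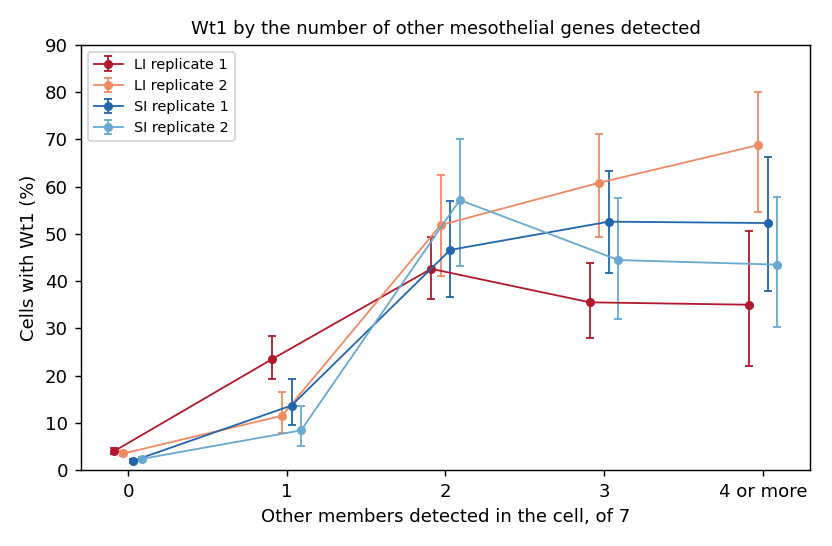
Share of cells with *Wt1* (%, 95% Wilson intervals) against the number of the 7 other members detected in the same thinned cell, 1 line per library. The share goes from 1.98% to 3.99% with none to 42.6% to 57.1% with 2, and the libraries part from there.

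Cells with *Wt1* but no *Upk3b* were compared with *Wt1*- cells of the same kind, outside the mesothelial-like cluster, within each library by edgeR with library as a block. This gave 610 called genes of 11959 (5.1%), 300 higher and 310 lower in *Wt1*+ cells. Among genes above the abundance minimum, the largest rise was that of *Anxa2*, which encodes the membrane-binding annexin A2, at 133, 115, 65.2 and 185 CPM against 28.9, 28.9, 17.0 and 31.8 CPM in *Wt1*- cells of LI1, LI2, SI1 and SI2 (2.18 ± 0.15, adjusted p = 4.75e-20). It was followed by *Slit2* (1.67 ± 0.17), a secreted guidance cue and like *Anxa2* a leading gene of cluster 4, and the stress-response genes *Ier3* (1.49), *Atf3* (1.40) and *Gadd45b* (1.38). Among the largest falls were those of *Myh11* (-3.17) and *Mylk* (-2.34) of smooth muscle, *Pitx1* (-2.80), a hindgut and hindlimb factor, and *Angptl1* (-2.45). *Myh11* was not lower in LI1 (7.80 against 4.05 CPM) and *Pitx1* was seen almost only in LI, and DESeq2 called neither. The summed SMC markers were at 620 to 881 CPM in *Wt1*+ and 763 to 4075 CPM in *Wt1*- cells and the neural markers at 54.6 to 259 against 198 to 471 CPM. The 4 immune markers were at 0 in *Wt1*+ cells, erythroid markers at 0 to 11.6 CPM against 1.16 to 7.17, and urogenital markers at 0 to 27.8 against 0.229 to 0.975 CPM. The part of such cells in the result was not tested.

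Few other mesothelial genes could be followed in these cells. Of the members, *Podxl* (1.00 ± 0.54, 4.42 to 9.75 against 1.55 to 4.74 CPM), *Bnc1* (0.52 ± 0.40) and *Nkain4* (0.10 ± 0.32) could be tested and did not pass, and none had an unadjusted p under 0.05 or was called by DESeq2. The *Wt1*+ sums held only 2 to 5 *Podxl* and 3 to 8 *Bnc1* UMIs per library, so that a moderate difference was not detectable. With the *Upk3b*- cells of the mesothelial-like cluster kept in the comparison edgeR called *Podxl* (3.34, adjusted p = 1.99e-11) and *Bnc1* (1.31, adjusted p = 0.00276) higher. *Upk1b* and *Muc16* then reached the test only through the *Wt1*+ sums of those cells, so that nothing is read from their values. Of 9 partner genes tested only *Krt19* was higher, at 2.21 to 14.5 CPM against 0.115 to 1.08 (3.47 ± 0.77). This value rests on 5, 1, 4 and 1 UMIs in the *Wt1*+ sums of LI1, LI2, SI1 and SI2, the sums through which so rare a gene could pass the filter, and by edgeR it did not pass without LI1 (adjusted p = 0.0505) or without SI1 (adjusted p = 0.0662). Of 7 coelomic factors 2 were higher, *Gata6* (7.80, 13.2, 43.5 and 53.2 CPM against 4.43, 1.91, 2.49 and 5.79, 2.83 ± 0.35) and *Nr2f2* (1.29 ± 0.09), and *Foxf1* (-1.27 ± 0.10) and *Tcf21* (-0.44 ± 0.11) were lower. *Gata6*, with 4, 6, 12 and 23 UMIs in these *Wt1*+ sums, encodes a zinc finger factor of the early coelomic lining and gut mesenchyme. It was thus higher in *Upk3b*+ cells and in *Wt1*+ cells without *Upk3b*, each against its own comparison cells, while *Nr2f2* was lower in the former and higher in the latter.

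Of the retinoid genes, *Crabp1* and *Aldh1a2* were called in both comparisons, with opposite signs. *Crabp1* was higher in *Wt1*+ cells without *Upk3b* (1.33 ± 0.18), and *Aldh1a2* (-1.72 ± 0.15) and *Aldh1a1* (-1.96 ± 0.27) were lower, out of 7 retinoid genes tested. *Aldh1a2* did not pass with the *Upk3b*- cells of the mesothelial-like cluster kept (-0.43). Of 7 hedgehog genes the targets *Hhip* (-2.62 ± 0.38), *Gli1* (-1.54 ± 0.36) and *Ptch1* (-0.99 ± 0.11) were lower, with *Ptch1* at 99.4, 126, 101 and 92.6 CPM against 186, 243, 196 and 190 CPM. The *Wt1*+ sums of LI1, LI2, SI1 and SI2 held only 6, 1, 2 and 0 *Hhip* UMIs. They held 5, 6, 1 and 1 UMIs of *Gli1* and 2, 2, 5 and 13 of *Aldh1a1*. Of 9 EMT genes *Snai1* (0.86 ± 0.16), *Zeb2* (0.66 ± 0.12) and *Vim* (0.39 ± 0.06) were higher. Of 8 mesenchymal genes *Pdgfrb*, *Col1a2*, *Dcn*, *Col1a1* and *Col3a1* were higher (0.27 to 0.95) and *Pdgfra* was lower (-0.60 ± 0.15). Without SI2 the log2 fold change of *Dcn* was -0.21, and *Col3a1* (0.16), *Tcf21* (-0.19) and *Pdgfra* (-0.45) did not pass either. *Dcn* (0.80) and *Tcf21* (-0.43) also did not pass without SI1, nor *Pdgfra* (-0.48) without LI2. DESeq2 called neither *Dcn*, *Col1a2*, *Pdgfra*, *Tcf21* nor *Gli1*. After thinning to 2000 UMIs *Pdgfrb*, *Dcn*, *Pdgfra*, *Tcf21* and *Gli1* did not pass, and without thinning *Dcn* did not.

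Whether this difference also stood within a cluster was looked at in cluster 4 only. Within cluster 4 alone, which held 46.1% of the *Wt1*+ cells, 10 genes of 6399 (0.156%) were called and none of the members could be tested. The genes higher in its *Wt1*+ cells were *Hoxd11*, *Rhob*, *Atf3*, *Fosb*, *Jun*, *Malat1* and the histone genes *Hist1h2ae* and *Hist1h1b*, and *Acta2* and *Actg2* were lower. *Malat1* (0.20 ± 0.03) and *Jun* (0.23 ± 0.05) moved little. *Anxa2* (0.0972), *Slit2* (0.11), *Gata6* (0.46), *Nr2f2* (0.0835) and *Crabp1* (0.42) did not pass there. Nor did *Dcn* pass, though its value of 0.81 was no smaller than over all clusters (0.75). *Ptch1* (0.0451), *Tcf21* (0.0572) and *Col1a1* (-0.22) had the opposite sign to that over all clusters and did not pass.

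By region, the *Upk3b*- cells outside the mesothelial-like cluster had *Wt1* at 13.4 and 14.1 CPM in LI and 6.84 and 9.09 CPM in SI, without overlap (SI over LI -0.65 ± 0.20, edgeR adjusted p = 0.196). In this comparison 2.28% of 14797 genes were called, and 0 of the 7 members tested, of which 6 had an unadjusted p under 0.05, as had 14.7% of all genes. DESeq2 also called 0. *Wt1* passed when cluster 8 was left out, an alternative added after the data were seen (-0.94, adjusted p = 0.0429). *Gpm6a* stood at 1.91 and 1.83 CPM in LI and 0.634 and 0.543 in SI (-1.53 ± 0.33, adjusted p = 0.0700), and *Podxl* at 4.56 and 3.38 against 1.92 and 1.14 CPM (-1.24 ± 0.35, adjusted p = 0.165). Without LI2 *Podxl* was at -1.49, *Gpm6a* at -1.61 and *Nkain4* at 2.14, and without SI1 *Podxl* was at -1.69 and *Nkain4* at 1.52. *Bnc1* stood at 6.4 and 7.94 CPM in LI and 6.51 and 5.74 CPM in SI, which overlapped (-0.09 ± 0.21).

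Within mesothelial-like cells *Wt1* showed no regional order, at 197 and 297 CPM in LI and 228 and 243 CPM in SI (0.01 ± 0.21, adjusted p = 0.993). *Nkain4* was the one member called, at 2.68 and 6.23 CPM in LI against 18.02 and 22.9 CPM in SI, from 8, 16, 39 and 36 UMIs (2.27 ± 0.41, adjusted p = 0.0274), and it passed in every alternative. It was called where 0.977% of 10649 genes were. In the *Upk3b*- cells outside the cluster *Nkain4* stood at 4.45 and 13.3 CPM in LI and 13.4 and 23.5 CPM in SI (1.19 ± 0.46, adjusted p = 0.293), so that its level in mesothelial-like cells of SI was near that of the cells around them. *Upk3b* stood at 541 and 674 CPM in LI and 864 and 811 CPM in SI (0.53 ± 0.18, adjusted p = 0.289), without overlap. *Podxl* (218 to 273 CPM over the libraries) and *Upk1b* (144 to 251 CPM) overlapped between regions. Without LI2 the log2 fold changes of *Upk3b* (0.66), *Upk1b* (0.76), *Lrrn4* (1.24), *Muc16* (0.87) and *Bnc1* (0.74) were larger than with all libraries. These values rest on LI1, the shallowest library. Among the partner genes *Dpp4*, *Rspo1* and *Slc9a3r1* were higher in SI (1.25 to 1.61), and so were the matrix genes *Dcn*, *Lum* and *Postn* (1.36 to 2.46).

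The last comparison asked whether the step from *Upk3b*- to *Upk3b*+ cells differed between regions, by the interaction of region and *Upk3b* state over all *Upk3b*- cells, those in the mesothelial-like cluster included. *Podxl* stood at 11.3 and 6.66 CPM in *Upk3b*- cells of LI and 3.74 and 3.01 CPM in those of SI, and at 219, 267, 218 and 272 CPM in *Upk3b*+ cells of LI1, LI2, SI1 and SI2. The step was larger in SI by 1.36 ± 0.28 on the log2 scale (edgeR adjusted p = 0.00750). *Upk1b* stood at 4.07 and 2.62 CPM in *Upk3b*- cells of LI against 1.45 and 1.39 CPM in SI, a difference of steps of 1.51 ± 0.35 (adjusted p = 0.0202). In *Upk3b*+ cells the regions overlapped for both genes. *Wt1* (0.67 ± 0.23, adjusted p = 0.193) and *Muc16* (2.26 ± 0.65, adjusted p = 0.0843) were not called, and 1.57% of all genes were. Without LI2 *Wt1* was at 1.12. The value of *Muc16* rests on 2 to 16 UMIs in the *Upk3b*- sums. *Upk1b*, at 21 to 57 UMIs there, passed the filter on low counts through its *Upk3b*+ sums. Both values are descriptions only. The calls of *Podxl* and *Upk1b* were lost without LI1 (*Podxl* 0.78, *Upk1b* 0.84), without SI1 (1.67 and 1.64) and without SI2 (1.06 and 1.35). Of the 109 *Upk1b*+ *Upk3b*- cells all but 16 lay inside the mesothelial-like cluster, whose *Upk3b*- cells were most numerous in LI1.

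Across the 39 sums of a cluster in a library with at least 20 cells, *Wt1* and *Upk3b* had different nearest genes. The levels most like *Wt1*, by Pearson correlation of log2(CPM + 1) among 8673 genes, were those of *Gata6* (0.944), *Cxcl13* (0.877), *Pycard* (0.864), *Ezr* (0.844) and *Peg3* (0.836). Those most like *Upk3b* were *Krt19* (0.979), *Krt7* (0.967), *Cldn15* (0.929), *Ezr* (0.925) and *Tmem98* (0.915). *Upk3b* was closer to *Podxl* (0.975), *Upk1b* (0.969), *Lrrn4* (0.949) and *Muc16* (0.925) than to *Wt1* (0.742), and *Wt1* was closest among members to *Bnc1* (0.805). *Nkain4* had no positive correlation with another member. Its values ran from -0.283 with *Bnc1* to near 0 with *Lrrn4* (-0.0863), *Muc16* (-0.0782) and *Msln* (-0.0022), the last on 3 UMIs. These are descriptions over sums that share libraries and clusters, with no test.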

How the data were processed

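Droplet single-cell RNA sequencing (10x Genomics Chromium) was compared between 2 SI and 2 LI libraries of E12.5 stromal cells. The authors aligned reads to mm10 with Cell Ranger (3.1.0 per the labels), and the deposited values are raw UMI counts per gene and cell barcode, without normalization (31630548 to 62886525 UMIs per library). The study then integrated its data with Seurat (3 per the labels). The kit (3′ or 5′) of each library is not given in the sources used here, so a kit effect cannot be told apart from libraries.

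Cells with at least 1000 genes and under 10% mitochondrial UMIs were kept. Scrublet (scanpy 1.11.5) marked 1 to 6 cells per library by its own threshold, so the highest scores were removed at 0.8% per 1000 cells (183 to 348 cells). Libraries were integrated in Seurat 5.3.0 (R 4.3.3) and clustered at resolution 0.3 on 30 principal components from 1924 genes, without the members, *Hox* genes and gene lists. A cluster was named where at least 3 markers of a class, and more than of any other, were among its 10 leading genes by fold (at least 30 CPM, 5 CPM added), or FB-like where at least 3 FB markers were in 10% of its cells. This naming rule was set after the clusters were seen. Members, lists and the markers were chosen with earlier results of these data known.

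UMI counts were summed per library and group of cells and tested with edgeR 4.0.16 (quasi-likelihood, TMM, default filter on low counts, Benjamini-Hochberg, calls under 0.05). Alternatives used DESeq2 1.42.0, no filter, each library left out, a replicate block, other thinning (2000 UMIs or none), doublets kept and clusters left out. Shares were taken on cells thinned to 3000 UMIs, with 95% Wilson intervals (SciPy 1.17.1). Besides members and lists, genes were named as the 5 called genes that moved most in each direction at a mean log2 CPM of at least 5, and the 5 nearest by correlation. A gene named by this rule is not reported here. The fits over all kept cells and with *Wt1* were also run on simulated counts. These had the same spread for all genes and no effect of library, so the run does not show how the fits behave on these data. Of the gene IDs 28339 of 28692 were in the mm10 annotation.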

Additional observations from a re-analysis of the deposited data

Results flagged for a closer look

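The step of *Podxl* from *Upk3b*- to *Upk3b*+ cells differed between regions by 1.36 on the log2 scale in the test of the interaction, larger in SI. That of *Upk1b* differed by 1.51 in the same test and direction, a description only, as its *Upk3b*+ sums carried it past the filter. Both were called by edgeR over all genes, with library as a block, and neither was called without LI1, without SI1 or without SI2.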

How the results depend on the processing

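The 7 members called higher in *Upk3b*+ cells stayed 7 in number in each alternative, while the number of all genes called ran from 1471 to 5265. The filter could let the rarest members through on their *Upk3b*+ sums alone. The counts of members called by region moved. Over all kept cells edgeR called 0 members (290 of 14920 genes), DESeq2 2 (622 genes) and no filter on low counts 4 (1210 of 20403). In mesothelial-like cells the count was 1 (104 of 10649 genes), as by DESeq2 (104 genes) and without the filter (418 of 16518). In *Upk3b*- cells outside the cluster it was 0 (337 of 14797 genes), but 3 without the filter (1294 of 20216) and 1 without cluster 8 (397 of 14729). For the interaction it was 2 (192 of 12211 genes), of which *Upk1b* passed the filter through its *Upk3b*+ sums. It was 4 without the filter (274 of 19053) or without thinning (394 of 13263). Fits without 1 library moved the counts of members and of all genes called. With *Wt1* 0 of 3 members tested were called (610 of 11959 genes), and with mesothelial-like *Upk3b*- cells kept 4 of 6 (762 of 11992). Of these 4, *Upk1b* and *Muc16* were not among the 3 and passed the filter through the *Wt1*+ sums. The cause was not tested. A fit by region without 1 library takes its spread from the other region alone. The labels give SI and LI replicates a number only, and 2 pairs cannot show whether they were paired (correlation of deviations 0.410, 0.228 and 0.407). With the replicate block 4 members were called over all kept cells, 3 in mesothelial-like cells and 3 in *Upk3b*- cells, and genes called went from 290, 104 and 337 to 972, 759 and 745.

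The 610 genes that differed with *Wt1* in *Upk3b*- cells were 287 by DESeq2, 368 after thinning to 2000 UMIs, 1890 without thinning, 20 with no replicate block (library left out of the fit) and 10 in cluster 4 alone. The *Wt1* share of *Upk3b*- cells (3.70% in LI, 2.17% in SI) was 2.89% and 1.57% at 2000 UMIs and 7.04% and 4.93% without thinning, 3.92% in LI with doublets kept and 4.51% in LI with mesothelial-like *Upk3b*- cells kept. LI minus SI, 1.53 percentage points, was 2.11 without thinning and 2.03 with those cells. Some signs turned. *Wt1* in mesothelial-like cells (0.01) was -0.0049 by DESeq2, -0.0209 without the filter, -0.0145 with doublets kept and -0.25 to 0.28 without 1 library, where *Muc16* ran from -0.14 to 0.87 and *Gpm6a* from -0.23 to 0.11. *Bnc1* by region in *Upk3b*- cells ran from -0.23 to 0.0248 without 1 library and was 0.64 in cluster 4 alone. Without 1 library *Nkain4* ran from -0.34 to 0.44 in the interaction and from -0.47 to 0.29 with *Wt1*, and *Dcn* from -0.21 to 1.18. In cluster 4 alone *Col1a1* (-0.22), *Ptch1* (0.0451) and *Tcf21* (0.0572) turned.

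At 3000 UMIs a gene of low level is missed in most cells that hold it, and free RNA can add UMIs to cells that lack it, so a share is not a share of expressing cells, and *Upk3b*- cells can include mesothelial ones. With 2 libraries a region, region cannot be told apart from pool or kit. Depth set LI1 apart, while LI2 (median 8760 UMIs) lay between SI1 and SI2.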
